A study of Mus musculus with 44 samples.

Results

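Molecular chaperones bind unfolded or nascent proteins and help them to fold, to reach their compartment or to be degraded. The Hspa proteins cycle between ATP and ADP, J-domain proteins (encoded by the Dnaj genes) bring them substrates and stimulate their ATPase, and the nucleotide exchange factor Hsph1 resets the cycle; Hsp90 proteins act later on partly folded clients, Hspd1 and Hspe1 form the folding chamber of mitochondria, and the small Hspb proteins hold unfolded proteins. Some of these genes are known targets of heat shock factors, others of the unfolded protein response of the endoplasmic reticulum (ER), and in neurons Dnajc5 and the Hspa8 cofactor Dnajc6 are known for their roles at the synaptic vesicle. The genes described here are those whose mouse symbol marks them as Hspa, Hspb, Hspd, Hspe, Hsph, Hsp90 or Dnaj, and they number 69 of the 17158 RefSeq accessions listed, 27 of them Hsp genes (13 Hspa, 8 Hspb, 3 Hsp90, and Hspd1, Hspe1 and Hsph1) and 42 Dnaj genes (4 Dnaja, 11 Dnajb and 27 Dnajc). The rule uses the symbol and no measured value. Dnajb7, Dnajb8 and Dnajc5g were not analysed here.

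The study profiled C57BL6J mouse brain and cortical neurons by RNA-seq, by ribosome profiling, which sequences ribosome-protected fragments (RPFs), and by 2 assays that count an mRNA by its 3′-end tag and measure its poly(A) tail (TAIL-seq and PAL-seq v2). Visual cortex came from 8 mice aged 6 to 7 weeks and kept in the dark for 1 week, of which 4 stayed in the dark and 4 saw light for 1 h, and these had PAL-seq v2 only. Primary cultures came from the cortices of newborn pups, pooled from about 5 animals each and grown with AraC, a poison of dividing cells. At 14 days in vitro (DIV14) they were unstimulated, given BDNF for 30 min or given glutamate and glycine (glu/gly) for 30 min; at DIV10 they were unstimulated or depolarized with KCl for 10 or 30 min; and 3 further DIV14 cultures carried, from day 5, a lentivirus in which the synapsin promoter drove EGFP alone (called GFP) or EGFP with miR-1 or miR-155 in its transcript. Hippocampus was taken from 1 adult male mouse and from embryonic day 16 embryos, and cortex from 1 adult male mouse. Each culture and each of these tissues had 1 library per assay, so only light was tested across animals, and the ratios between cultures or tissues are given with 95% intervals that cover counting error only. The BDNF and glu/gly cultures share their control, as do both KCl cultures, and both miRNA cultures share the GFP control. The paper describes 2 batches of 3 cultures each, without assigning the cultures to a batch. RNA of the hippocampi was poly(A)-selected, and that of the adult cortex and of 6 of the cultures was depleted of rRNA, so RNA levels of hippocampus and of the other samples also differ in this step. The RPF libraries of the miR-1 and miR-155 cultures carry contradictory labels and enter no comparison.

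Counts on genes ranged from 448022 to 7689624 in the 12 RNA-seq libraries, from 2812215 to 23212489 in the 10 assigned RPF libraries, from 389654 to 1057812 in the 10 TAIL-seq libraries, from 1233538 to 4812273 in the 8 visual cortex libraries, and were 221876 and 86841 tags in the adult and embryonic hippocampal tail libraries. Levels are given as CPM, the count divided by the library's total on genes and multiplied by 1000000. Neuronal markers were present in every sample (8 genes, summing to 2723 to 6006 CPM in RNA-seq). The cultures also held astrocyte markers (1029 to 1981 CPM over 6 genes), and the microglial, oligodendrocyte and endothelial marker sums there were at most 110, 173 and 29.5 CPM. Markers of dividing progenitors summed to 71.2 to 358 CPM in the cultures, with 224 CPM unstimulated and 98.0 CPM with BDNF at DIV14. Light exposure itself was visible in the visual cortex: 12 of 13 immediate early genes rose, and their summed CPM were 417, 608, 1041 and 2013 in the dark mice and 7644, 8996, 7176 and 4894 in the light mice.

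Promoter sequence is shown first for the members that the stimulation results turn on, from RefSeq on GRCm38.p6, written in the direction of transcription with the matched letters in capitals. Dnajb1 (chromosome 8, 83608175 to 83612653) and Dnajb5 (chromosome 4, 42949867 to 42959425) encode cytosolic J-domain proteins, and both hold the core of a cAMP response element, TGACG on either strand, at chr8:83608134-83608174 (plus strand) and chr4:42949794-42949858 (plus strand).
Dnajb1: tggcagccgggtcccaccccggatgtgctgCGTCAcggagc
Dnajb5: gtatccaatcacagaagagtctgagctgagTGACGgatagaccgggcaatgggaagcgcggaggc
These letters are common: 20.8% of all 32851 promoter windows of 300 bases in the table hold them. Counted by gene, they were in 23% of 27025 genes and in 31 of the 55 members that matched a window.

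The ER stress element, CCAAT and CCACG with 9 bases between them, is far rarer. It was found in 0.119% of the windows, in 0.137% of the genes and in 3 members. These were Hspa5, the Hspa protein of the ER lumen, Hsp90b1, the ER member of the Hsp90 family, and Dnajc3, an ER J-domain protein, at chr2:34772015-34772053 (plus strand), chr10:86705523-86705666 (minus strand, with 2 matches in opposite directions) and chr14:118937817-118937855 (plus strand).
Hspa5: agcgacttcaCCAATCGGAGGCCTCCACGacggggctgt
Hsp90b1: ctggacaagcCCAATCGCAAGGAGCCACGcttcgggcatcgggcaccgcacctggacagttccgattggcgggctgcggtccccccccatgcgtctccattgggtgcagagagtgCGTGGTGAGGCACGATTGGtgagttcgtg
Dnajc3: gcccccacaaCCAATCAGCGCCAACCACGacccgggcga

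The heat shock element was searched on both strands as a pair of units, GAANNTTC, and as 3 alternating units of GAA and TTC each 2 bases apart. The pair was in 7.86% of the windows, in 9.04% of the genes and in 13 members. The longer form, which can contain the pair, was in 0.603% of the windows, in 0.662% of the genes and in Dnajb6, Hspd1, Hspe1 and Hsph1. That of Hspe1, the divergent neighbour of Hspd1, lies at chr1:55088053-55088082 (plus strand). That of Hsph1 lies just inside the transcript, at chr5:149636287-149636308 (minus strand). The stress-inducible neighbours Hspa1a and Hspa1b are shown because their promoters are nearly one sequence: the windows differ at 4 of 300 bases (98.7% identical), and the stretches at chr17:34972228-34972285 and chr17:34959310-34959367 (both minus strand) are the same.
Hspe1: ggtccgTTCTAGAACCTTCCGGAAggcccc
Hsph1: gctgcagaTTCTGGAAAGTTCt
Hspa1a: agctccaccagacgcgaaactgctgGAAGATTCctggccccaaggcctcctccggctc
Hspa1b: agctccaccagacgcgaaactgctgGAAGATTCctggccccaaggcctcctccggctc
Neither form was found in the 300-base windows of Dnajb1, Dnajb5 and Hspa5. A pair in the opposite order, with TTC before GAA, was not searched on its own, nor were inexact matches. A match is a description of the letters, and its use in these samples was not tested.

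One hour of light raised 3 of these chaperone mRNAs in visual cortex, the J-domain genes Dnajb1 and Dnajb5 and the ER chaperone Hspa5, and lowered none. Of 53 members that passed the filter on low counts, these 3 were higher in light at an adjusted p under 0.05 (edgeR quasi-likelihood test, Benjamini-Hochberg over 9554 genes), beside 1.21% of all genes tested; 0 were lower, beside 0.126%. At an unadjusted p under 0.05, 9 members were higher and 1 lower, beside 903 of the 9554 genes in either direction, and DESeq2 also gave 3 higher and 0 lower. The median log2 change was 0.06 over these members and −0.005 over all genes, with 32 of the 53 members above 0.

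Dnajb1, whose protein delivers substrates to cytosolic Hspa proteins, had 92.3, 96.0, 95.2 and 126 CPM in the 4 dark mice and 309, 508, 524 and 226 in the 4 light mice. Every light mouse stood above every dark mouse, although the light mice ranged widely. The log2 change was 1.98 ± 0.19 (SE, n = 4 mice per group), a 3.93-fold rise (adjusted p = 2.99e-07, edgeR). Light mouse 4, with the lowest Dnajb1 CPM of the light mice, also had the lowest sum of immediate early genes of those mice, and dark mouse 4, with the highest Dnajb1 CPM of the dark mice, had the highest such sum in the dark; the relation was not tested.

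Dnajb5, a close relative of Dnajb1, had 36.2, 59.0, 57.8 and 74.1 CPM in the dark mice and 151, 172, 210 and 146 in the light mice. Again the groups did not overlap. The log2 change was 1.61 ± 0.16 (SE, n = 4 per group), a 3.06-fold rise (adjusted p = 2.99e-07, edgeR).

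Hspa5, which binds new proteins as they enter the ER, had 532, 479.8, 380.2 and 488 CPM in the dark mice and 584, 734, 745 and 522 in the light mice. Light mouse 4 lay below dark mouse 1, so the groups overlapped. The log2 change was 0.49 ± 0.11 (SE, n = 4 per group), a 1.40-fold rise (adjusted p = 0.0259, edgeR). The call was lost without dark mouse 3, dark mouse 4, light mouse 2 or light mouse 3 (adjusted p = 0.139, 0.0545, 0.117 and 0.166, edgeR).

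**Figure D1:**
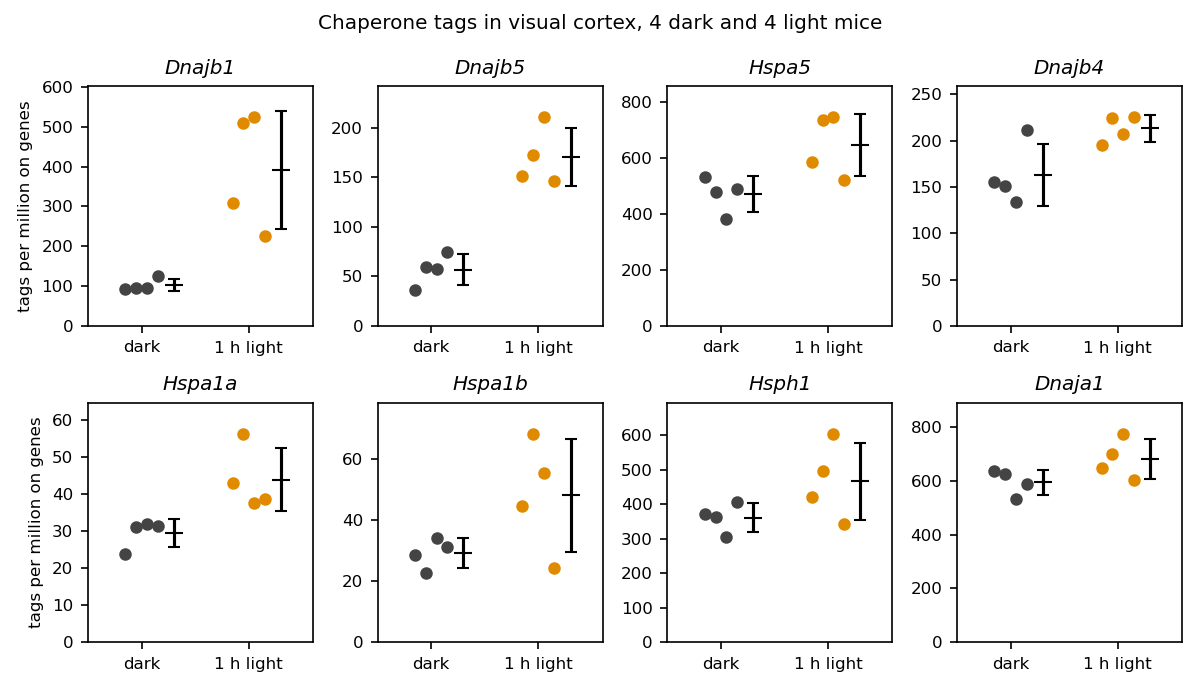
Tags as CPM (vertical axis, from 0, a scale for each panel) of 8 members in visual cortex; each point is 1 mouse (4 dark, 4 after 1 h of light) and the bar beside it is the mean with its SD. Dnajb1 and Dnajb5 do not overlap between groups (92.3 to 126 against 226 to 524, and 36.2 to 74.1 against 146 to 210). Hspa1a, which did not pass the test, does not overlap either (23.9 to 32.0 against 37.6 to 56.2). Hspa5, Dnajb4, Hspa1b, Hsph1 and Dnaja1 overlap.

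The stress-inducible neighbours Hspa1a and Hspa1b did not pass the test. Hspa1a had 23.9, 31.0, 32.0 and 31.4 CPM in the dark mice and 43.0, 56.2, 37.6 and 38.6 in the light mice, which did not overlap, with a log2 change of 0.59 ± 0.18 (SE, n = 4 per group; adjusted p = 0.153, edgeR). Hspa1b had 28.7, 22.9, 34.3 and 31.4 in the dark mice and 44.6, 68.3, 55.3 and 24.4 in the light mice, which overlapped in light mouse 4 (log2 change 0.79 ± 0.24, adjusted p = 0.136, edgeR). Hsph1, the exchange factor for cytosolic Hspa proteins, had a log2 change of 0.39 ± 0.13 (adjusted p = 0.208, edgeR), and both Hspa1b and Hsph1 passed the test without light mouse 4 (adjusted p = 0.00252 and 0.0144, edgeR). Dnajb4, another cytosolic relative of Dnajb1, reached an adjusted p of 0.0898 (edgeR) with a log2 change of 0.42 ± 0.12, and passed without dark mouse 4 (adjusted p = 0.00422).

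The small chaperone Hspb1 was too scarce for a firm value, with 1.04 to 12.5 CPM and a log2 change of 1.00 ± 0.49 (adjusted p = 0.531, edgeR). Constitutive and organellar members had smaller differences that did not pass: log2 changes were 0.22 for Dnaja1, a cytosolic partner of Hspa8; 0.15 for Hsp90ab1, the constitutive cytosolic Hsp90; 0.36 for Hsp90b1; 0.13 for Hspe1 and 0.005 for Hspd1 of the mitochondrial chamber; 0.06 for the mitochondrial Hspa9; and 0.03 for Dnajc5. Dnajb9 and Dnajc3, J-domain partners of Hspa5 in the ER, had log2 changes of −0.14 and 0.04. The lowest estimate among members with an unadjusted p under 0.05 was that of Hspa13, at −0.39 (adjusted p = 0.523, edgeR).

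**Figure D2:**
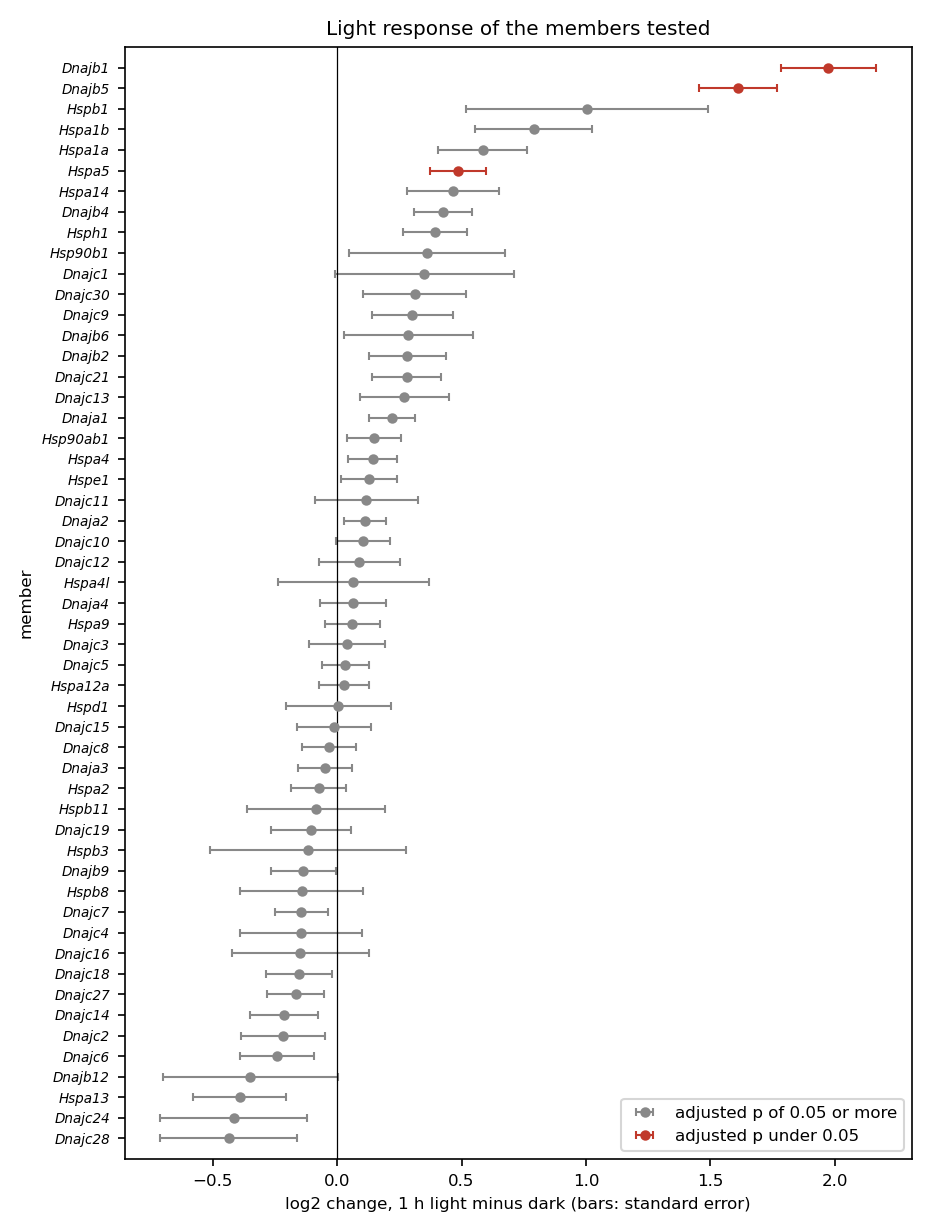
Log2 change in tags after 1 h of light (horizontal axis; bars are standard errors, 4 mice per group) of the 53 members tested, ordered by their change; the 3 with an adjusted p under 0.05 are in red. Dnajb1 (1.98) and Dnajb5 (1.61) stand above the other members, and Hspa5 follows at 0.49 among genes with larger but less certain changes such as Hspb1 (1.00).

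Other genes of the chaperone network were counted by lists. None of 4 heat shock factor genes tested, none of 33 co-chaperones and none of 14 subunits of the TRiC and prefoldin complexes passed the test, with median log2 changes of 0.09, 0.08 and −0.01. Of 15 genes of the ER unfolded protein response, 1 rose, the transcription factor Atf4 (log2 change 0.56 ± 0.11, adjusted p = 0.00707, edgeR), and the median was 0.07. Among the cell type markers tested, 0 were higher and 1 was lower, the Notch target Hes5 (log2 change −1.27, adjusted p = 0.00574, edgeR). The median log2 changes of the marker lists were 0.02 for neurons, −0.23 for astrocytes, −0.03 for microglia, −0.26 for oligodendrocytes, −0.05 for endothelial and mural cells and 0.24 for dividing progenitors. The summed astrocyte markers were 1334 to 1936 CPM in the dark and 1195 to 1405 in the light mice, and oligodendrocyte markers 899 to 1493 and 628 to 1120. In such bulk libraries fewer cells of a type and less RNA per cell cannot be told apart, and the part of these markers in the chaperone values was not tested.

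Poly(A) tails of the members were not called longer or shorter after light. With at least 50 tags in each of the 8 mice, 28 members could be tested (limma, Benjamini-Hochberg over 4321 genes), and 0 were longer, beside 0.231% of all genes, and 0 shorter, beside 0% of all genes; at an unadjusted p under 0.05, 3 were longer and 0 shorter, beside 170 of the 4321 genes in either direction. The median difference was 6.06 nt over members and 3.75 nt over all genes. The members with the largest differences were Dnajb5 (17.3 nt), the cytosolic Hspa4 (15.1 nt) and Hspa5 (14.2 nt), and Dnajb1 had 12.7 nt, each with a standard error of 6.68 nt that limma made common to all genes.

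Dnajb5 tails averaged 89.8, 89.7, 74.6 and 82.2 nt in the dark mice and 90.1, 118, 113 and 84.3 nt in the light mice. The spread between light mice was thus larger than the difference between the groups (adjusted p = 0.919, limma). Dnajb1 tails averaged 84.7, 91.5, 66.1 and 76.8 nt in the dark and 99.7, 105, 85.0 and 80.1 nt in the light (adjusted p = 0.999, limma). Mice also differed in all tails at once: the median gene had 77.4 to 92.4 nt in the dark mice and 81.6 to 97.8 nt in the light mice.

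In the dark, the longest mean tails among members with 50 tags in all 4 dark mice were those of Hspa4 (97.4 ± 8.19 nt, SD, n = 4), of the Rab-like J-domain gene Dnajc27 (91.4 ± 9.87 nt) and of Hspa12a (91.4 ± 11.8 nt). The shortest were those of 3 genes for proteins of the ER, Dnajb9 (62.6 ± 4.89 nt), Hspa5 (68.0 ± 5.13 nt) and Hspa13 (73.6 ± 9.71 nt). The next shortest, Hsph1, had 74.7 ± 8.46 nt, within the SD of Hspa13. Dnajc3 and Dnajc10, also of the ER, had 78.8 ± 11.6 and 87.8 ± 9.19 nt, so short tails were not common to all ER members.

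In the cultures, Dnajb1 was the member that stood out, and BDNF the stimulus. Members were compared where the authors' RPM, which divides reads by a larger total than CPM does, was at least 10 in the RNA-seq of both cultures and no assay had a 0, and a member was called where RNA-seq reads, RPFs and TAIL-seq tags were all past 1.5-fold in one direction. With BDNF, Dnajb1 was higher, 1 of 32 members, and 0 were lower, beside 0.0877% and 0.351% of the 4562 genes compared; the 4 genes called higher were Dnajb1, Dusp6, Gm13889 and Junb. With glu/gly 0 of 32 members were called higher and 0 lower (0.0654% and 0.262% of all genes), with KCl for 10 min 0 and 0 of 30 (0% and 0.0655%), and with KCl for 30 min 0 and 0 of 29 (0.0873% and 0.524%). The ER J-domain gene Dnajb11 was left out of the glu/gly and KCl comparisons for a 0 in 1 assay.

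Dnajb1 had 25 RNA-seq reads in the unstimulated DIV14 culture and 125 after BDNF, 49.1 and 261 CPM, a ratio of 5.30 (95% interval 3.43 to 8.51). Its RPFs numbered 273 and 617, a ratio of 2.65 (2.30 to 3.07), and its tags 67 and 170, a ratio of 2.501 (1.87 to 3.37). All 3 assays thus counted more Dnajb1 after BDNF, and RNA-seq, with the fewest reads, gave the largest ratio. With glu/gly, against the same control, the ratios were 1.96 (1.21 to 3.27) in RNA-seq, 1.29 (1.08 to 1.55) in RPFs and 1.62 (1.16 to 2.263) in tags, so that the RPFs kept Dnajb1 from the call.

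In the DIV10 cultures Dnajb1 was near its control after 10 min of KCl, with ratios of 0.97 (0.65 to 1.41), 0.99 (0.88 to 1.12) and 0.95 (0.59 to 1.52) in RNA-seq, RPFs and tags. After 30 min they were 1.69 (1.27 to 2.25), 1.19 (1.03 to 1.37) and 1.58 (1.07 to 2.36). Each interval at 30 min lay above 1, and the RPFs were again the assay with the smallest ratio. The summed immediate early genes were 175 CPM in the unstimulated DIV14 culture, 2469 with BDNF and 1170 with glu/gly, and 121, 218 and 772 in the unstimulated, 10 min and 30 min KCl cultures.

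Dnajb5, which rose with light in cortex, was not called with BDNF or glu/gly. Its ratios with BDNF were 1.57 (0.98 to 2.57) in RNA-seq, 1.07 (0.94 to 1.22) in RPFs and 1.10 (0.74 to 1.64) in tags, and with glu/gly 1.09, 0.97 and 1.02. It was under 10 RPM in the RNA-seq of the unstimulated DIV10 culture, so it was not compared with KCl. There, unstimulated and after 10 and 30 min of KCl, it had 61.2, 59.2 and 46.3 CPM in tags. Its RPFs were 42.3, 44.1 and 51.8 RPM. The time after stimulation (30 min against 1 h), the tissue and the assay all differ between the cultures and the visual cortex, so their values are given side by side only. Hspa5 had ratios of 1.07, 1.05 and 1.09 with BDNF, and of 1.52 (1.41 to 1.63), 1.27 (1.23 to 1.31) and 1.04 (0.92 to 1.17) after KCl for 30 min, where the intervals of RNA-seq and RPFs lay above 1 and that of tags did not. Hsph1 had ratios of 1.09, 1.13 and 1.18 with BDNF and 0.79, 1.28 and 1.25 after KCl for 30 min.

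**Figure D3:**
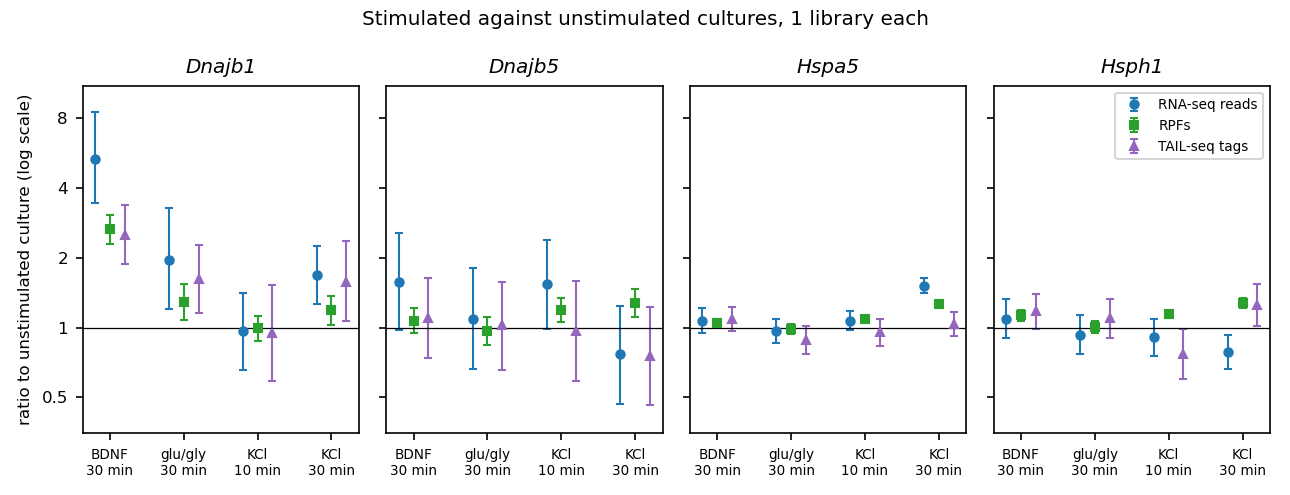
Ratio to the unstimulated culture (vertical axis, log scale) of Dnajb1, Dnajb5, Hspa5 and Hsph1 with 4 stimuli, for RNA-seq reads, RPFs and TAIL-seq tags; each point compares 1 library with 1 library, and bars are 95% counting intervals. Dnajb1 with BDNF has the highest ratios (5.30, 2.65 and 2.501), and the other points lie between 0.76 and 1.96.

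Translational efficiency (TE) compares footprints with mRNA: it is log2 of a gene's RPM in RPFs over its RPM in RNA-seq, given where the latter was at least 10. For Dnajb1 it was 2.00 in the unstimulated DIV14 culture, 0.91 with BDNF and 1.10 with glu/gly, so that its TE was lower by 1.09 with BDNF, the lowest difference of 32 members; the fifth percentile of 4705 genes was −0.66. Its mean tail was 121 nt unstimulated, 151 nt with BDNF and 122 nt with glu/gly. The difference of 29.9 nt with BDNF was the highest of 31 members and above the 95th percentile of all genes, 11.2 nt, on 67 and 170 tags. After BDNF, Dnajb1 thus had more RNA, more RPFs, fewer RPFs per RNA-seq read and a longer mean tail, in 1 library each. The unstimulated DIV14 control had the lowest Dnajb1 CPM of the RNA-seq libraries, 49.1. The GFP culture, also given no stimulus but carrying the lentivirus, had 91.5 CPM and a TE of 1.06, and the unstimulated DIV10 culture had a TE of 1.47. Whether the GFP culture and the control came from 1 batch is not stated. Tags were 64.3 CPM in the control and 100 with GFP, but RPFs were 62.9 and 54.9. The part of the control's low RNA-seq level in the RNA-seq ratio and the TE difference was not tested.

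Past 1.5-fold with BDNF were 2 of the 32 members in RNA-seq (Dnajb1 and Dnajb5), 1 in RPFs (Dnajb1) and 5 in tags, beside 5.70%, 2.46% and 9.12% of all genes. The other 4 in tags were Dnajc13 at 1.67 (1.00 to 2.82), Dnajc3 at 0.66 (0.41 to 1.03), Hspd1 at 0.51 (0.25 to 0.98) and Hsp90aa1 at 0.49 (0.15 to 1.42), each on 51 tags or fewer. Hspa8, the constitutive cytosolic Hspa protein, had ratios of 1.02, 0.97 and 0.91, Hsp90ab1 1.04, 1.09 and 0.94, Hsp90b1 1.00, 1.08 and 1.08, and Hspa9 1.10, 0.94 and 0.86 in RNA-seq, RPFs and tags. The median log2 change of the members was 0.03 in RNA-seq, 0.05 in RPFs and −0.01 in tags. Hspa1a had 0 RNA-seq reads in both cultures, which allows up to 5.90 and 6.26 CPM, and Hspa1b had 1 and 0.

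Of 32 members compared between the miR-1 and the GFP culture, by RNA-seq and TAIL-seq at 1.5-fold in both, 1 was called higher (1.04% of 4129 genes) and 1 lower (2.16%). Hsph1 had 93 RNA-seq reads in the GFP culture and 325 in the deeper miR-1 library, a ratio of 1.62 (1.28 to 2.06) in CPM, and 91 and 174 tags, a ratio of 1.67 (1.29 to 2.17). Dnajc3, an ER J-domain protein, had ratios of 0.60 (0.40 to 0.90) in RNA-seq and 0.51 (0.22 to 1.12) in tags, the latter on 19 and 11 tags. With miR-155, against the same GFP culture, 0 of 32 members were called higher (0.576% of 3993 genes) and 0 lower (1.33%); Hsph1 had ratios of 1.32 (1.06 to 1.67) and 1.40 (1.07 to 1.83), and Dnajc3 0.72 and 0.81. The GFP culture had the lowest Hsph1 level of the 12 RNA-seq libraries, an RPKM of 15.1. The summed immediate early genes were also lower there than in both miRNA cultures, at 248 CPM against 422 with miR-1 and 418 with miR-155, and their part in the Hsph1 ratios was not tested.

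Levels per length, as the authors' RPKM over the coding region in 12 RNA-seq libraries, placed Hsp90ab1 first (82.0 to 919, median 136). It was followed by Hspa5 (90.1 to 151, median 118), Hsp90b1 (62.4 to 141, median 88.3) and Dnajc5, the cysteine string protein of synaptic vesicles (53.8 to 92.8, median 80.9). These ranges overlap, so the order of neighbours differs between libraries. Medians were at least 20 for 20 members and under 1 for 13, of which 6 were Hspb, 4 Hspa, 2 Dnajc and 1 Dnajb. The Hspb7 and Hspb9 genes had no tag in any of the 20 tail libraries.

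Tags gave another order. In the dark mice the most abundant members were Dnaja1 (594 ± 46.7 CPM, SD, n = 4), Hspa5 (470.0 ± 64.1), Hsph1 (362 ± 42.1), the cytosolic J-domain gene Dnaja2 (342 ± 5.56) and Hspa4 (258 ± 16.8). Hsph1 and Dnaja2 lay within their spread. Dnaja1 had an RPKM of only 3.01 to 7.20 in the RNA-seq libraries, and Hspa1a and Hspa1b, at 22.9 to 68.3 CPM in visual cortex, had an RPKM of at most 0.38 and 0.73. In these 3 genes 92.5%, 91.0% and 88.3% of the 30-base words of the counted coding region occur more than once in the genome, but 0% of those in the last 250 bases, where tags map. The authors kept only tail reads with 1 place in the genome; how RNA-seq and RPF reads with several places were counted is not given in the sources used here, and the part of the copies in these levels was not tested.

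Sequence copies touch many members. Over 20% of the coding words were repeated in 16 of the 69 members and under 5% in 49, and over 20% of the words of the last 250 bases in 13. Dnajb1, Dnajb5 and Hspa5 had 0% in both. Hspa8 had 94.9% and 89.6%, Hspd1 73.5% and 86.4%, Hspe1 75.3% and 88.7%, Hspb1 80.7% and 69.7%, Hsp90aa1, the stress-inducible cytosolic Hsp90, 90.2% and 8.15%, Hsp90ab1 21.6% and 52.0%, and Hsp90b1 0% and 48.4%, in the coding region and at the 3′ end. Values of these genes are uncertain where reads could be split among copies.

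The 2 tail assays of adult cortex gave different levels for some members. Of 53 members with at least 10 CPM in either, 44 were within 2-fold between the mean of the dark mice (PAL-seq v2, visual cortex) and the adult cortex (TAIL-seq). Hspa8 had 10 tags in all 8 mice together, 0 to 2.85 CPM, and 323 tags, or 538 CPM, in the adult cortex by TAIL-seq, with 509 to 679 CPM over the TAIL-seq libraries. Hsp90b1 had 8.29 and 90.0 CPM, Hsp90aa1 2.82 and 18.3, and Hsp90ab1 137 and 478. The clathrin-uncoating factor Dnajc6 and the Hspa4 relative Hspa4l were the other members over 3-fold higher in TAIL-seq, at 0% repeated words in their last 250 bases. Hspe1 was the only member over 3-fold higher in PAL-seq v2, where it had 158 CPM, 7.90 times its level in TAIL-seq. Hspa8 did not pass the filter of the light test. The assays also differ in animals and region, and the part of copies in these differences was not tested.

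**Figure D4:**
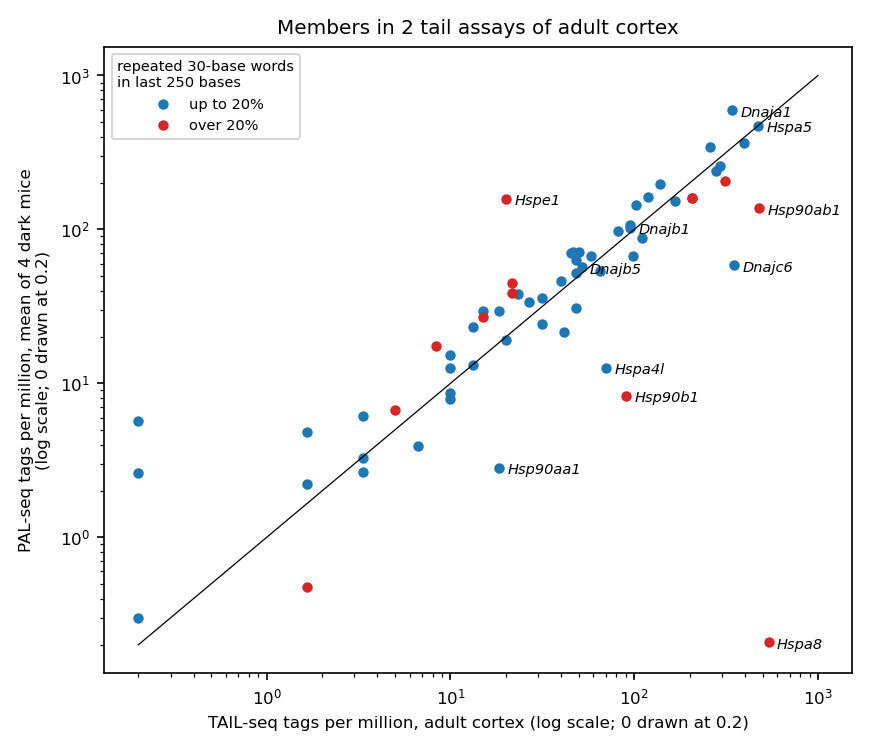
Each point is a member: CPM of TAIL-seq tags in adult cortex (horizontal axis) against the mean CPM of PAL-seq v2 tags of the 4 dark mice (vertical axis), both on log scales with 0 drawn at 0.2; red marks members with over 20% repeated 30-base words in their last 250 bases, and the line marks equal values. Hspa8 (538 against 0.21) lies farthest below the line, and Dnajb1, Dnajb5 and Hspa5 lie close to it.

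The median TE of the members was above that of all genes in 7 of the 10 samples with both assays, and below it in the DIV14 unstimulated, glu/gly and KCl 30 min cultures. With at least 30 RPM in RNA-seq, the differences in these 3 cultures turned from −0.10, −0.004 and −0.08 to 0.06, 0.03 and 0.34. The median over members was 0.91 to 1.68 over the samples, and the median over all genes 0.67 to 1.44. Among 28 members with a TE in all 10 samples, 7 stood above the gene median in every one, namely Hspa4, Hspa5, Hspa8, Hsp90ab1, Hsp90b1, Hsph1 and Dnajc5. Below it in every sample stood 4, the ribosome-associated Dnajc2, the ER reductase Dnajc10, the endosomal Dnajc13 and the membrane protein Dnajc14. The shares of all genes above or below the median in every sample were not counted, so these counts have no background.

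In the DIV14 unstimulated culture the highest TEs of members were those of Hsp90ab1 (3.35), Hspa12a (3.03) and Dnajb5 (2.62), and the lowest those of Dnajc14 (−0.83), Dnajc27 (−0.24) and Hspa14 (−0.05). In adult hippocampus they were those of Hspa2 (2.28), Hspa5 (2.15) and Hspa12a (2.08), and of Dnajc21 (−1.30), Dnajc2 (−0.64) and Dnajc14 (−0.45). Hspa12a was among the 3 highest and Dnajc14 among the 3 lowest in both. Hspa9, Hspd1 and Dnajb11 had intermediate TEs, 0.33 to 1.63, 0.39 to 1.67 and 0.32 to 1.43 over the samples.

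The TE of Hsp90ab1 was 2.89 to 3.99 in the cultures and 3.09 in adult cortex, but 1.83 in adult and 1.02 in embryonic hippocampus. Its RPFs ranged less, at 3560 to 4998 CPM in the 10 libraries, whereas its RNA-seq reads numbered 987 to 1538 CPM outside hippocampus and 2810 and 4234 in adult and embryonic hippocampus. Both hippocampal RNA libraries were poly(A)-selected, and tissue and selection cannot be told apart here. Mean tails of Hsp90ab1 were 75.1 to 90.1 nt in the mice and 86.7 to 106 nt in the TAIL-seq libraries.

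Adult and embryonic hippocampus were both poly(A)-selected and were compared by RNA-seq reads and RPFs, past 2-fold in both. Of 41 members, 7 were higher in the adult (15.2% of the 8168 genes compared) and 1 lower (20.9%). The median log2 ratio of the members was 0.35 in RNA-seq and 0.12 in RPFs, and −0.34 in both over all genes.

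The greatest ratio was that of Hspa2, an Hspa protein best known from spermatogenesis, with 84 RNA-seq reads in embryonic and 938 in adult hippocampus, a ratio of 11.8 (9.43 to 14.9), and with 158 and 6485 RPFs, a ratio of 44.0 (37.6 to 51.8). Dnaja4 followed with 9.34 and 3.08 in RNA-seq and RPFs, Dnajc27 with 4.96 and 7.96, Dnajb4 with 2.64 and 4.57, Hspa4l with 2.24 and 3.57, Dnajb14 of the ER membrane with 2.15 and 5.64, and Hspa12a with 2.07 and 3.11. The member lower in the adult was Dnajc9, a chaperone of histones, with 843 RNA-seq reads in the embryo and 208 in the adult, a ratio of 0.26 (0.22 to 0.30), and 3012 and 670 RPFs, a ratio of 0.24 (0.22 to 0.26). Markers of dividing progenitors summed to 895 CPM in the embryo and 57.6 in the adult over 6 genes, those of oligodendrocytes to 38.5 and 1558, with Mog at 0 in the embryo, and those of neurons to 2723 and 5633; their part in these ratios was not tested.

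**Figure D5:**
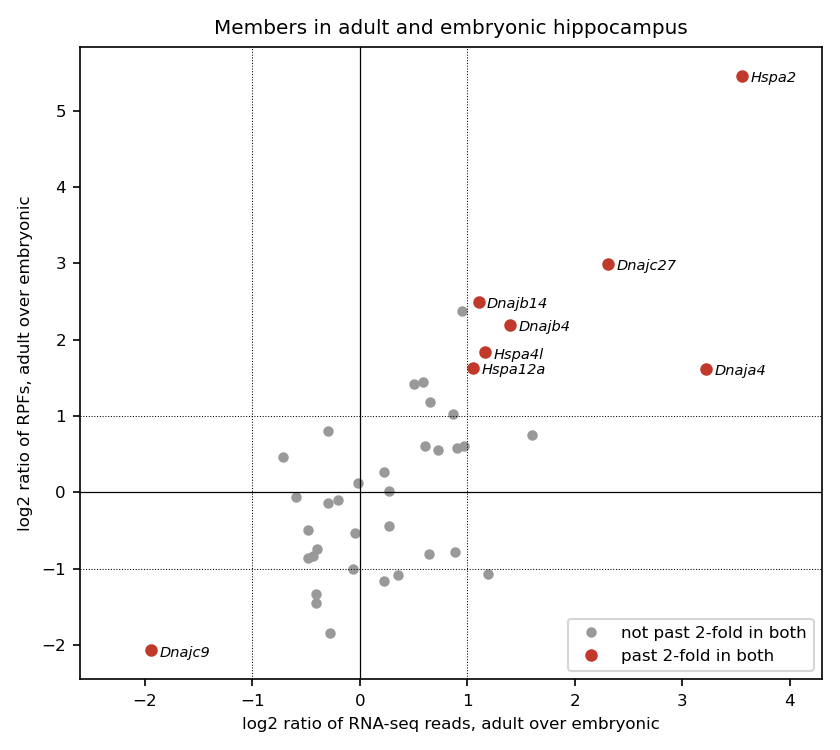
Log2 ratio of adult to embryonic hippocampus in RNA-seq reads (horizontal axis) and in RPFs (vertical axis) for the 41 members compared, 1 library per tissue and assay; dotted lines mark 2-fold, and members past it in both are named in red. Hspa2 lies at the top right (ratios of 11.8 and 44.0) and Dnajc9 alone at the lower left (0.26 and 0.24).

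Past 2-fold in either direction were 10 of the 41 members in RNA-seq and 20 in RPFs, beside 46.1% and 55.6% of all genes compared. The mitochondrial Hspd1 had ratios of adult to embryo of 0.82 (0.73 to 0.93) in RNA-seq and 0.28 (0.26 to 0.30) in RPFs. Hsp90b1, with 1.28 and 0.47, and Hsp90aa1, with 1.56 and 0.57, were higher in the adult in RNA-seq and lower in RPFs. Hspa5 had 1.52 and 1.53. Repeated words made up 73.5% of the coding region in Hspd1 and 90.2% in Hsp90aa1, so the counts of both are uncertain. Hspa1a and Hspa1b were under the RNA-seq minimum, but their RPFs differed: Hspa1a had 236 in the adult and 0 in the embryo, at least 84.3-fold higher in CPM against a floor of 3 RPFs, with an exact 95% interval that starts at 68.0-fold, and Hspa1b had 674 and 1, a ratio of 722 (129 to 28573). Reads of these near-identical genes cannot be assigned with certainty to either.

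Between adult cortex and the DIV14 unstimulated culture, 39 members were compared by the same rule, and 0 were higher (5.72% of 6036 genes) and 1 lower (5.47%). It was Hspd1, with 82 RNA-seq reads in cortex and 70 in the culture, a ratio of 0.35 (0.25 to 0.49) in CPM, and 275 and 356 RPFs, a ratio of 0.45 (0.38 to 0.52). Dnajb1 had 1.37 (0.88 to 2.20) and 1.98 (1.73 to 2.27), and Hsph1 1.51 and 1.46. Marker sums of oligodendrocytes were 1839 CPM in cortex and 110 in the culture, of microglia 467 and 64.9, and of neurons 6006 and 3746, and their part was not tested.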

How the data were processed

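The authors counted RNA-seq reads and RPFs over coding regions without their first 50 nt, 1 transcript per gene on mm10, and deposited raw counts with RPM and RPKM values and a log2 TE. They aligned with STAR (version 2.4.2 per the labels, while the paper names another version for tail reads). For each gene of a tail library they deposited the count of tags and the mean tail length in nt. All lengths of the 2 hippocampi, however, are multiples of 0.5, as medians are, so those are not set beside the others. Counts were used as deposited, with the tail standards left out of totals.

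Light was tested with edgeR 4.0.16 (TMM, filterByExpr, quasi-likelihood) on tags and with limma 3.58.1 on mean tails of genes with at least 50 tags in each mouse (R 4.3.3), with Benjamini-Hochberg adjustment over all genes tested and a threshold of 0.05; DESeq2 1.42.0 was an alternative. The scripts were tested on simulated data. Cultures and tissues had 1 library each, so ratios of CPM (counts scaled to 1000000 on genes) have exact 95% binomial intervals and no test. A floor is 3 counts. Named members are those called in a comparison, the 5 with most tags, the 3 highest and lowest in TE and tail, and 16 fixed genes. Members were taken by symbol, but the gene families and the lists were chosen with earlier results of these data known. Repeated 30-base words were counted in the GRCm38 genome with GENCODE transcripts. The numbers of the dark and light mice do not pair them: same-numbered mice had correlations of their deviations of −0.196 to 0.0311. Alternatives were other scalings, filters, thresholds and leaving out each mouse.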

Additional observations from a re-analysis of the deposited data

Results flagged for a closer look

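Of 59 groups of 4 mice examined for 1 distant value, 3 had one, and chance gives about 1 in 20. Dark mouse 4 had 126 CPM of Dnajb1 tags, and the other dark mice 92.3 to 96.0. Dark mouse 1 had 23.9 CPM of Hspa1a tags, and the other dark mice 31.0 to 32.0. Light mouse 2 had a mean Hspa1a tail of 97.6 nt, and the other light mice 90.5 to 91.3 nt.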

How the results depend on the processing

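Dnajb1 and Dnajb5 kept their call in light under every alternative run. The 3 members higher in light became 6 of 64 with no filter on low counts, beside 162 of 14481 genes. With 1 mouse left out they became 2 to 5 of 53 or 54, beside 94 to 130 genes of 9666 to 9779. With the mouse number as a replicate block, although the numbers do not pair the mice, 2 of 53 members and 103 of 9554 genes were higher. The log2 change of Hspa5 was then 0.48 (adjusted p = 0.0845, edgeR), and the block changed no other call of a named member. Directions turned for members that had not passed the test: with 1 mouse left out, the tail difference of Dnajc5 (−4.30 to 0.54 nt), of Hsp90ab1 with each library centred on its median (−1.33 nt), and log2 changes, leaving out 1 mouse, of Hspa9 (−0.017 to 0.15) and Hspd1 (−0.12 to 0.11). At 30 RPM the BDNF call of Dnajb1 was lost (0 of 18 members, since Dnajb1 fell below the minimum), as was the miR-1 call of Dnajc3 (0 lower). The hippocampal count fell to 4 higher and the cortical one to 0 lower, with fewer members compared than at 10 RPM. At 2-fold, miR-1 had 0 higher and 0 lower. RNA-seq alone gave 2 higher with BDNF (Dnajb1 and Dnajb5), 2 higher and 2 lower with glu/gly, and 6 higher and 1 lower after KCl for 30 min, where 5.70%, 10.4% and 15.05% of the genes compared in all 3 assays were past the same fold in RNA-seq in either direction. At 1.5-fold, 14 of 41 members and 1690 of 8168 genes were higher in adult than in embryonic hippocampus, and 4 of 39 members and 640 of 6036 genes in adult cortex than in culture. The median over samples of the members' median TE was 1.16, and 1.26 at 30 RPM, where members lay above all genes in all 10 samples. Where no other cause is given, the cause was not tested. In depth, 3 counts are 6.70 CPM in the shallowest RNA-seq library and 34.5 CPM in the shallowest tail library, that of embryonic hippocampus.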

Other observations

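The 2 RPF libraries that could not be assigned to the miR-1 or the miR-155 culture had, in RPFs, 95.5 and 75.9 Dnajb1, 138 and 149 Dnajb5, 1088 and 1033 Hspa5, 743 and 689 Hsph1 and 452 and 372 Hspa8 CPM; the GFP culture had 54.9, 118, 1010.0, 602 and 381.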
